A study of Mus musculus with 147 samples.

Results

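Ctsa, Ctsb, Ctsc, Ctsd, Ctsh, Ctsk, Ctsl, Ctss, Ctsz and Lgmn encode lysosomal cathepsins and legumain, the proteases that break down proteins inside macrophages. The rule lists the genes by name and uses no measured value: the 10 listed symbols were found by Ensembl identifier, with the version dropped, in both deposited count tables, which hold 50686 identifiers each. All 10 were present, and 9 of them were expressed in every population. Ctsk, best known from bone-resorbing osteoclasts, was at 0 counts in 90 of 147 libraries and reached at most 23.4 CPM (counts scaled to the depth of each library) in any library.

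The series holds 147 libraries of mouse macrophages and monocytes sorted by flow cytometry, in 2 experiments. The first, on refeeding, covers 7 populations (macrophages of adipose tissue, colon, pancreatic islets and peritoneum, Kupffer cells of the liver, microglia of the brain, and monocytes) of mice that went without food for 12 h, either taken then or fed again for 2 h. The fasted groups held 8 libraries each, or 6 for islets and Kupffer cells. The refed groups held 9, or 8 for peritoneal macrophages and 7 for islets and Kupffer cells. The second, on diet, covers microglia and the macrophages of islets and peritoneum. Its mice ate normal diet, high-fat diet over 8 weeks, or that high-fat diet with streptozotocin (STZ) added at week 4. STZ is a toxin of insulin-producing beta cells and, per the series' design text, it ablated the islets and left the mice hyperglycemic. These groups held 4, 4 and 3 islet libraries, 5, 4 and 5 peritoneal libraries, and 4, 4 and 4 microglial libraries. STZ was always given on top of the high-fat diet, so its effect on normal diet was not measured. Strain, sex and age were not given in these sources. Polyadenylated RNA was made into libraries with Smart-seq2, a full-length method for few cells, from 400 cells per library in the refeeding experiment and in the diet islet libraries, 5000 cells in the diet microglial libraries and 100000 cells in the diet peritoneal libraries.

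Library totals were 7.92 to 27.3 M counts for refeeding and 11.3 to 34.5 M counts for diet. In every group, 0 genes of its own population's marker list were at 0 throughout. For microglia, Kupffer cells, peritoneal macrophages, monocytes and adipose macrophages, the summed markers were higher in their own groups than in any other group. The colonic list, which rests on MHC class II genes, was higher in islet macrophages of mice on normal diet (40615 CPM, group median, unscaled as are all marker sums) than in the colonic groups (15953 and 17302), so it does not set the colonic libraries apart. The islet list (28129 to 38758 in islet groups) reached 29499 in refed Kupffer cells, inside that range. Colonic libraries also carried RNA of pancreatic acinar cells, up to 231999 CPM in a fasted library. A pair of libraries stood apart in these genes, Kupffer fasted replicate 8 and peritoneal normal diet replicate 3, and the main results that rest on them are given with and without them. Labels do not say that libraries of a group came from separate animals, so p-values measure the spread between these libraries. In bulk RNA of this kind, fewer cells of a type and less RNA per cell cannot be told apart.

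Cathepsins are made as inactive precursors, tagged with mannose 6-phosphate and carried to the acidic lysosome, where they mature. Cathepsin D cuts with an aspartate, cathepsin A is a serine carboxypeptidase, and most of the others are cysteine proteases of the papain family. Legumain cuts after asparagine and helps to mature other cathepsins. In macrophages this set degrades engulfed cells and microbes and prepares peptides for MHC class II, and cathepsin S trims the invariant chain that guards the class II groove. The transcription factors TFEB and TFE3 bind a short palindrome around the core CACGTG, near many lysosomal genes.

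Promoter windows of 250 bases before and 50 after the start (RefSeq, GRCm38.p6) were found for 8 of the 10 genes, in 10 windows. Ctsb and Ctsh were not matched. A series of 3 nested motifs was searched on both strands, each longer one holding the shorter. CACGTG was in 7.15% of all 32851 windows and in those of Ctsa, Ctsd, Ctsl and Lgmn. TCACGTG was in 3.77% of all windows and in those of Ctsa, Ctsd and Lgmn. TCACGTGA was in 0.974% of all windows and in those of Ctsa and Ctsd. A stretch around 1 match is shown for each of the 3 genes with TCACGTG, because Ctsd and Lgmn had the widest range of levels among the populations described next, and Ctsa the narrowest. Capitals mark the match, and each stretch is read 5′ to 3′ on the strand of its gene. The Ctsd stretch is chr7:142387898-142387957 on the minus strand (positions -130 to -71), the Ctsa stretch chr2:164833713-164833772 on the plus strand (-60 to -1) and the Lgmn stretch chr12:102439113-102439172 on the minus strand (-80 to -21). Outside these stretches Ctsa held another TCACGTGA, from position 5, and Ctsd another TCACGTG, on the other strand from position -245. A match is a description of these letters, and no binding was measured.
Ctsd: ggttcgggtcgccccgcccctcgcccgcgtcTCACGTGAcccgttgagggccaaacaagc
Ctsa: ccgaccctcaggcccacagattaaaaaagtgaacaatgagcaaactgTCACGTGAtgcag
Lgmn: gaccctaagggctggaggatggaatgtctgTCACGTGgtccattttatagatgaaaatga

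These genes differed widely between populations. In fasted mice the 10 genes together held 3.49% ± 0.463 (SD, n = 8) of all counts in microglia and 2.94% ± 0.458 (SD, n = 6) in Kupffer cells, or 2.81% ± 0.373 (SD, n = 5) without Kupffer fasted replicate 8. The share was 2.14% ± 0.154 (SD, n = 6) in islet, 1.91% ± 0.186 (SD, n = 8) in adipose, 1.47% ± 0.467 (SD, n = 8) in colonic and 1.03% ± 0.037 (SD, n = 8) in peritoneal macrophages, and 0.922% ± 0.078 (SD, n = 8) in monocytes. Monocytes, the blood cells that can become macrophages, had the lowest mean of Ctsb, Ctsd, Ctsl, Ctsz and Lgmn, peritoneal macrophages of Ctsc and Ctsh, colonic macrophages of Ctsa and adipose macrophages of Ctss. Among the 21 pairs of populations, 142 of 210 gene-by-pair differences passed an adjusted p below 0.05 (edgeR quasi-likelihood test, Benjamini-Hochberg over 16114 genes). Between 8.98% and 25.5% of all tested genes passed in a pair. Without Kupffer fasted replicate 8 the count was 137, and without the 2 fasted colonic libraries richest in acinar RNA 140. Lgmn and Ctsz passed in 18 of 21 pairs, Ctsb and Ctsd in 17, Ctsc, Ctsl and Ctss in 16, Ctsh in 14, Ctsa in 10 and Ctsk in 0.

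**Figure D1:**
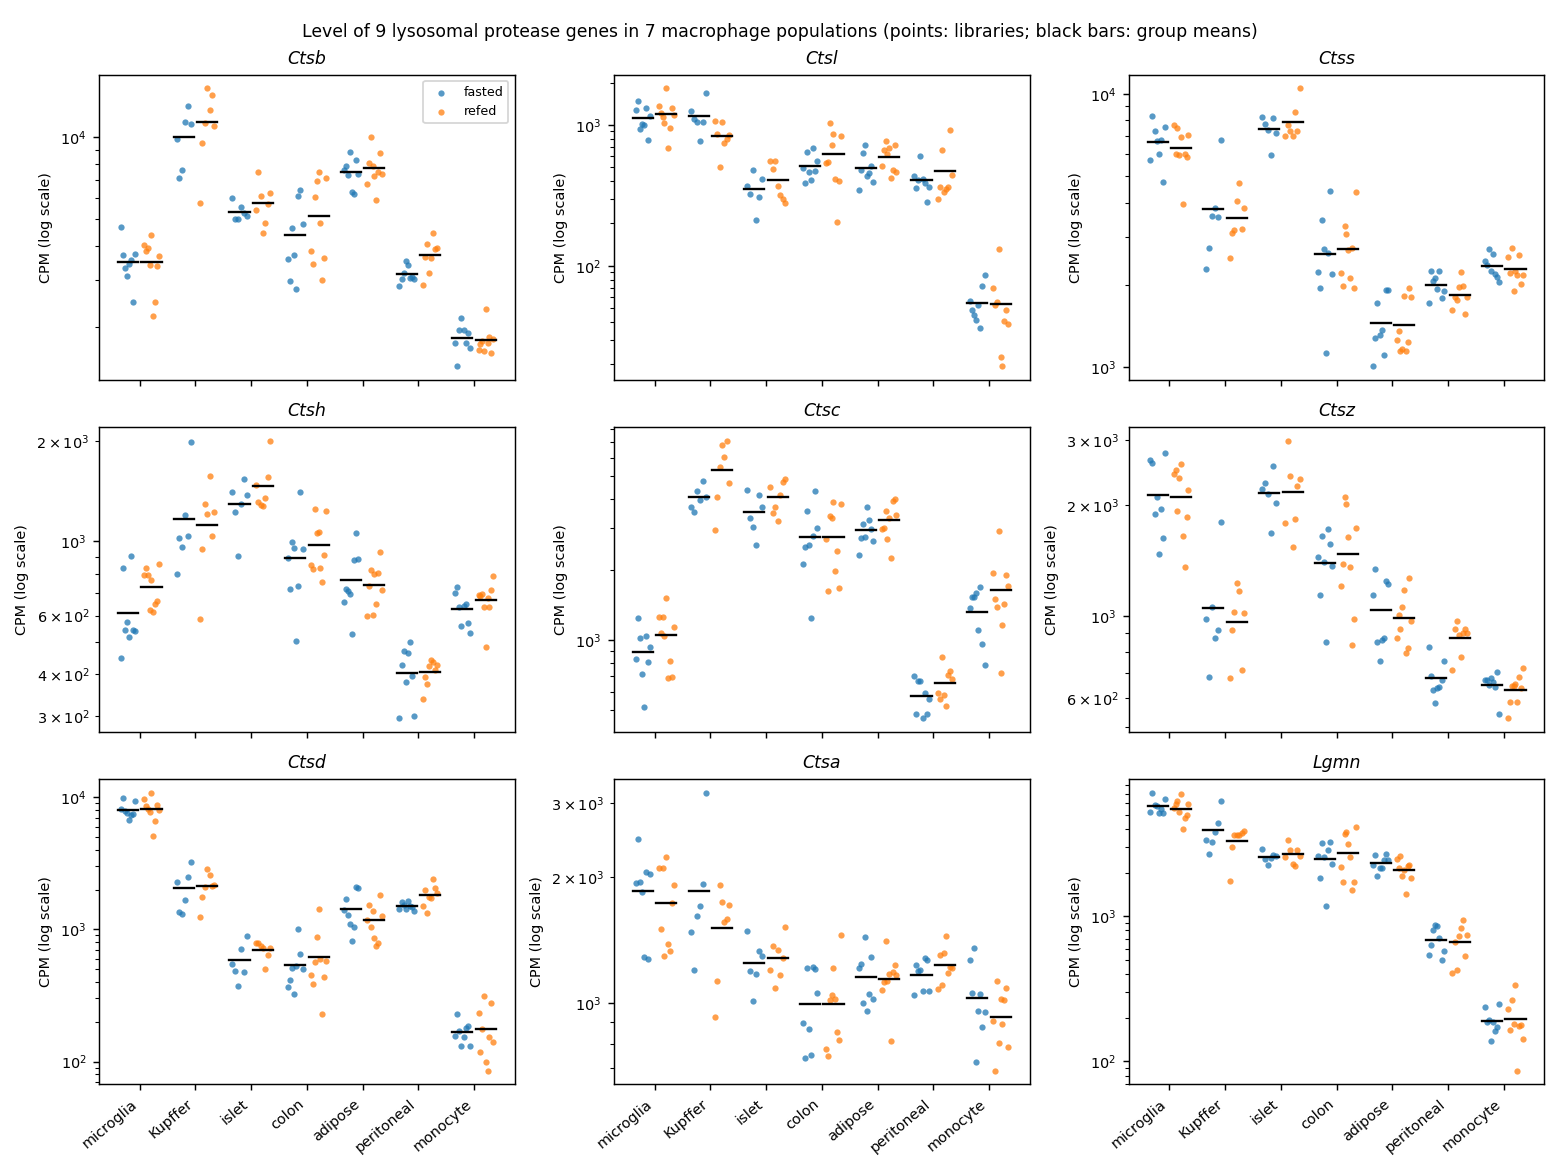
Level of each gene in every library of the refeeding experiment, in CPM on a log axis, by population and feeding state; points are libraries and bars are group means. Ctsd, Lgmn and Ctsl spread widest among populations, with microglia highest in Ctsd and Lgmn and monocytes lowest in all 3, while fasted and refed libraries of a population overlap throughout.

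Ctsd, the aspartic protease, separated the populations most widely. Its mean in fasted microglia, 8005 ± 1055 CPM (SD, n = 8), was 47.97-fold that in fasted monocytes, 167 ± 32.1 CPM (SD, n = 8). The fasted microglial libraries ran from 6674 through a median of 7684 to 9833 CPM, and the monocyte libraries from 131 through 163 to 229.5 CPM. Every microglial library stood above every library of the other fasted populations, the next highest being a Kupffer library at 3257 CPM. Microglia exceeded Kupffer cells (2063 ± 763 CPM, SD, n = 6) by 1.98 ± 0.20 on the log2 scale (fit estimate ± SE, edgeR adjusted p = 6.6e-11), and by 2.09 without Kupffer fasted replicate 8. Next in order, peritoneal macrophages (1495 ± 97.3 CPM, SD, n = 8) and adipose macrophages (1433 ± 468 CPM, SD, n = 8) followed Kupffer cells without a step between neighbours that passed. Adipose macrophages then exceeded islet macrophages (582 ± 190 CPM, SD, n = 6) by 1.33 ± 0.20 (edgeR adjusted p = 2.1e-06), and colonic macrophages (538 ± 215 CPM, SD, n = 8) exceeded monocytes by 1.68 ± 0.18 (edgeR adjusted p = 2.5e-10).

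Legumain, Lgmn, had the second widest range, 30.2-fold between the means of fasted microglia (5760 ± 681 CPM, SD, n = 8) and monocytes (191 ± 36.998 CPM, SD, n = 8). Its order fell in clear steps: microglia over Kupffer cells (3941 ± 1240 CPM, SD, n = 6) by 0.57 ± 0.16 on the log2 scale (edgeR adjusted p = 0.0094), and Kupffer cells over islet macrophages (2571 ± 220 CPM, SD, n = 6) by 0.63 ± 0.17 (edgeR adjusted p = 0.0096). Without Kupffer fasted replicate 8, a library described later, Kupffer cells held 3491 ± 632 CPM (SD, n = 5), the first step was 0.71 and the other 0.48 with an edgeR adjusted p of 0.0524. Islet, colonic (2474 ± 698 CPM, SD, n = 8) and adipose macrophages (2330 ± 265 CPM, SD, n = 8) were not separated. Adipose macrophages exceeded peritoneal macrophages (686 ± 146 CPM, SD, n = 8) by 1.77 ± 0.15 (edgeR adjusted p = 3.6e-13), which in turn exceeded monocytes by 1.87 ± 0.15 (edgeR adjusted p = 7.5e-14). Peritoneal macrophages thus held a Lgmn level between monocytes and the other 5 macrophage populations.

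Ctsb, a cysteine protease that both cuts within proteins and trims their ends, was highest in Kupffer cells and adipose macrophages. Fasted Kupffer libraries ran from 7076 through 10533 to 13104 CPM and adipose libraries from 6201 through 7466 to 8874 CPM, and the ranges overlap. Their means differed by 0.41 ± 0.14 on the log2 scale, which did not pass (edgeR adjusted p = 0.052, and 0.0825 without Kupffer fasted replicate 8). Adipose macrophages exceeded islet macrophages (5324 ± 371 CPM, SD, n = 6) by 0.53 ± 0.14 (edgeR adjusted p = 0.0088). Colonic macrophages (4365 ± 1360 CPM, SD, n = 8), microglia (3494 ± 624 CPM, SD, n = 8) and peritoneal macrophages (3135 ± 217 CPM, SD, n = 8) followed without a step that passed. Monocytes were lowest at 1828 ± 218 CPM (SD, n = 8), below peritoneal macrophages by a difference of 0.79 ± 0.13 (edgeR adjusted p = 8.3e-06).

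Ctsl, a cysteine endopeptidase, was lowest in monocytes by a wide gap. Fasted monocyte libraries ran from 36.2 through 50.7 to 86.9 CPM, against 210.3, 347 and 483 CPM in islet macrophages, the next lowest population, and the ranges do not meet. Islet macrophages exceeded monocytes by 2.64 ± 0.20 on the log2 scale (edgeR adjusted p = 3.2e-15). At the upper end, Kupffer cells (1153 ± 311 CPM, SD, n = 6) and microglia (1121 ± 226 CPM, SD, n = 8) were not separated, and microglia exceeded colonic macrophages (513 ± 105.8 CPM, SD, n = 8) by 1.13 ± 0.18 (edgeR adjusted p = 2e-06). Colonic, adipose, peritoneal and islet macrophages formed a middle group with no step between neighbours that passed.

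Ctss, the cysteine protease that trims the invariant chain, followed another order. Islet macrophages (7444 ± 826 CPM, SD, n = 6) and microglia (6645 ± 1121 CPM, SD, n = 8) were highest and not separated. Microglia exceeded Kupffer cells (3781 ± 1570 CPM, SD, n = 6) by 0.88 ± 0.18 on the log2 scale (edgeR adjusted p = 0.00018), and by 1.09 without Kupffer fasted replicate 8, when Kupffer cells held 3186 ± 652 CPM (SD, n = 5). Adipose macrophages, high in Ctsb, were lowest in Ctss at 1454 ± 353 CPM (SD, n = 8), below peritoneal macrophages (2005 ± 200.1 CPM, SD, n = 8) by a difference of 0.48 ± 0.16 (edgeR adjusted p = 0.031). Monocytes held 2345 ± 225 CPM (SD, n = 8) of Ctss, inside the macrophage range, in contrast to their low Ctsd, Ctsl and Lgmn.

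Ctsc, Ctsh, Ctsz and Ctsa encode proteases that trim proteins from an end. Ctsc, the dipeptidyl peptidase that activates granule serine proteases, ran from 4071 ± 454 CPM (SD, n = 6) in Kupffer cells to 577 ± 96.005 CPM (SD, n = 8) in peritoneal macrophages, a 7.06-fold range of means. Among Kupffer, islet, adipose and colonic macrophages no step between neighbours passed. The steps below them passed: colonic macrophages over monocytes by 1.07 ± 0.17 on the log2 scale (edgeR adjusted p = 3.3e-06), monocytes over microglia by 0.56 ± 0.17 (edgeR adjusted p = 0.0091) and microglia over peritoneal macrophages by 0.62 ± 0.17 (edgeR adjusted p = 0.0041). Microglia, highest in Ctsd and Lgmn, were thus second lowest in Ctsc. Ctsh, an aminopeptidase, ran from 1291 ± 218 CPM (SD, n = 6) in islet to 404 ± 76.4 CPM (SD, n = 8) in peritoneal macrophages, and the step into peritoneal macrophages was the one between neighbours that passed (0.59 ± 0.16 below microglia, edgeR adjusted p = 0.005). Ctsz, a carboxypeptidase, was highest in islet macrophages (2152 ± 290 CPM, SD, n = 6) and microglia (2135 ± 488 CPM, SD, n = 8), lowest in peritoneal macrophages (678 ± 77.6 CPM, SD, n = 8) and monocytes (652 ± 48.7 CPM, SD, n = 8), and microglia exceeded colonic macrophages by 0.60 ± 0.14 (edgeR adjusted p = 0.00077). Colonic macrophages (1392 ± 284 CPM, SD, n = 8) exceeded Kupffer cells (1052 ± 386 CPM, SD, n = 6) in Ctsz by 0.46 ± 0.15 (edgeR adjusted p = 0.045), a call lost without the 2 acinar-rich colonic libraries (0.47, edgeR adjusted p = 0.0529). Without Kupffer fasted replicate 8 it was 0.65 (edgeR adjusted p = 0.0023). In the same gene, adipose macrophages exceeded peritoneal macrophages by 0.61 ± 0.14 (edgeR adjusted p = 0.00097).

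Ctsa, the serine carboxypeptidase that also protects neuraminidase and beta-galactosidase in the lysosome, was the most even, with a 1.86-fold range of means. Microglia (1851 ± 397 CPM, SD, n = 8) and Kupffer cells (1848 ± 688 CPM, SD, n = 6) were highest and colonic macrophages lowest (994.5 ± 205 CPM, SD, n = 8). Kupffer cells exceeded islet macrophages by 0.57 ± 0.17 on the log2 scale (edgeR adjusted p = 0.017), but by 0.37 without Kupffer fasted replicate 8 (edgeR adjusted p = 0.118). Exons of Ctsa overlap 495 bases of Pltp on the other strand. Pltp held 1733260 counts over the libraries of the refeeding experiment, against 2373534 for Ctsa. Whether counting used strand is not stated, so the Ctsa and Pltp counts near that overlap cannot be told apart.

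Counts also grow with the length of a transcript, so levels of different genes are compared here as CPM per kilobase of the longest principal transcript. On that scale Ctss had the highest fasted level of the set in 6 of the 7 populations, with 5493 in islet macrophages, 4904 in microglia, 2791 in Kupffer cells, 1911 in colonic macrophages, 1731 in monocytes and 1480 in peritoneal macrophages. Adipose macrophages were the exception, with 1573 for Ctsb against 1073 for Ctss. In microglia, Ctsd (3764) and Lgmn (2895) came next after Ctss. Exons of Ctsd overlap 808 bases of Gm49369 on the same strand, and Gm49369 held 0 counts over the refeeding libraries. How reads in shared bases were counted is not stated. The Ctsd level may thus be too low, and its order beside Ctss in microglia is uncertain. Shares of the set's counts, given next, are not scaled by length and set populations side by side, not genes.

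**Figure D2:**
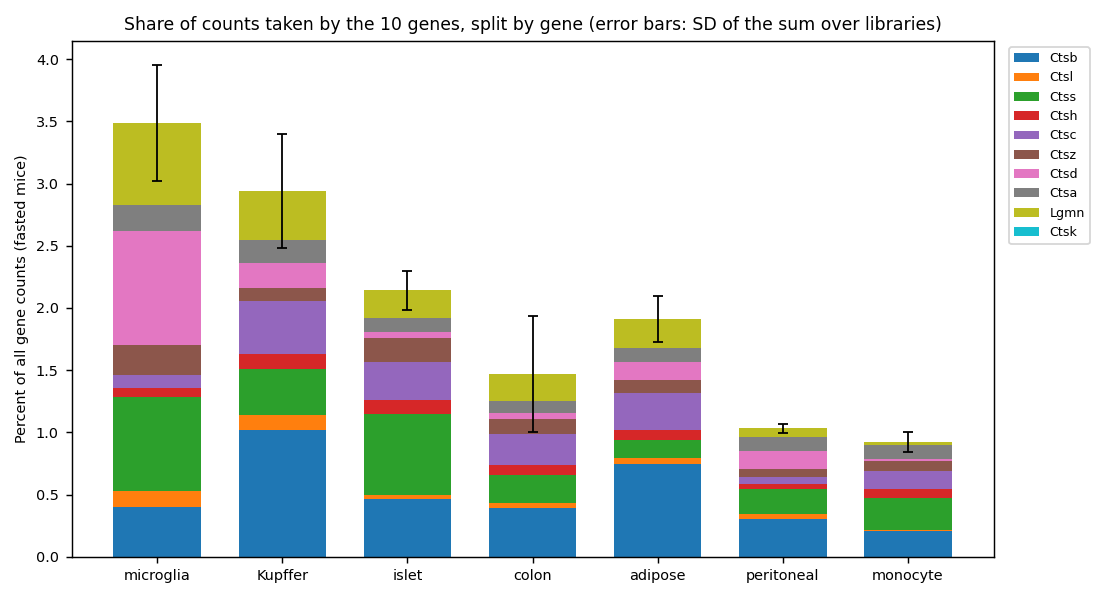
Share of all gene counts held by the 10 genes in fasted mice, in percent, by population: each bar is the group mean of the sum, split by gene, and the error bar is the SD of the sum over libraries. The sum runs from 3.49% in microglia to 0.922% in monocytes, and of it Ctsb made up 39.1% in adipose macrophages and 34.7% in Kupffer cells, and Ctsd 26.3% in microglia and 2.04% in monocytes.

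The normal-diet libraries gave an order in other libraries of 3 of these populations, where the number of starting cells also differs with the population and cannot be told apart from it. Of 27 gene-by-pair differences, 17 passed (edgeR), against 27.3% to 28.2% of all tested genes in a pair, and leaving out any 1 library gave 15 to 20. Ctsd was again highest in microglia (4831 ± 591 CPM, SD, n = 4), above peritoneal macrophages (2123 ± 578 CPM, SD, n = 5) by 1.21 ± 0.27 on the log2 scale (edgeR adjusted p = 0.0034). Peritoneal macrophages in turn exceeded islet macrophages (597 ± 232 CPM, SD, n = 4) by 1.81 ± 0.28 (edgeR adjusted p = 0.00032). Lgmn ran from microglia (5153 ± 221 CPM, SD, n = 4) through islet macrophages (2180 ± 212 CPM, SD, n = 4) to peritoneal macrophages (828 ± 325 CPM, SD, n = 5), and both steps passed. Ctsa and Ctsh passed in 0 of 3 pairs each. Without peritoneal normal diet replicate 3, peritoneal macrophages held 1864 ± 22.996 CPM of Ctsd and 686 ± 76.6 CPM of Lgmn (SD, n = 4), the Ctsd steps were 1.38 and 1.65, and Ctsh passed in islet macrophages over both others, at 0.95 over peritoneal macrophages and 0.74 over microglia (edgeR adjusted p = 0.000541 and 0.00263, against 25.3% and 28.1% of all genes).

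Over the 14 groups of the refeeding experiment, these genes followed more than 1 order. As a description, with no test, Pearson's r of mean log2 CPM was 0.915 between Ctsl and Lgmn, 0.897 between Ctsc and Ctsh, 0.853 between Ctsa and Ctsd and 0.792 between Ctss and Ctsz, but -0.232 between Ctsc and Ctsd. The 14 groups are 7 populations in 2 feeding states, so the points are not independent. Among 8893 genes with a mean of at least 10 CPM, those most like Ctsd were Prpf40b (r = 0.957), Fcgr3 (0.955) and Naglu (0.951). Among the closest to Lgmn were Slc7a8 (0.980) and Cttnbp2nl (0.975), and closest to Ctsl were the lysosomal peptidase gene Tpp1, Scamp5 and the cathepsin gene Ctsf (0.975 each to 3 digits). For Ctsb they were P2rx4 (0.937), Rgl1 (0.920) and Ctla2b (0.917). For Ctss they were Apbb2 (0.953), Extl3 (0.952) and Ly86 (0.930), and for Ctsz Arhgap22 (0.959), Bhlhe41 (0.956) and Pdgfb (0.954). For Ctsc they were Rasgrp1 (0.950), Pparg (0.931) and Spic (0.930), for Ctsh Scimp (0.940), Ifit2 (0.923) and Acvrl1 (0.919), and among those most like Ctsa were Alg5 (0.915) and Zfp532 (0.902).

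Refeeding for 2 h after the fast was compared within each population, to ask whether the short change in feeding alters these genes. None of the 9 tested genes passed in any of the 7 populations (0 of 63 tests, edgeR adjusted p below 0.05, cohort in the fit). Over all tested genes, 0.0% passed in adipose, colonic and islet macrophages, microglia, Kupffer cells and monocytes, and 0.432% in peritoneal macrophages. Log2 differences between refed and fasted mice ran from -0.44 to 0.34, with SEs up to 0.30, and 7 of 63 had an unadjusted p below 0.05. In 0 of 63 did the refed and fasted libraries separate without overlap, but neither did they in most genes (0.00843% to 0.3% of all genes separated in a population). DESeq2 and limma-voom each called 1 gene in peritoneal macrophages and 0 elsewhere. Ctsk was not tested within any population because its counts were too low.

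Peritoneal macrophages, the population with calls among other genes, held the difference nearest the threshold. Ctsz, the carboxypeptidase, ran from 580 through 655 to 823 CPM in fasted and from 713 through 899 to 973 CPM in refed libraries. The groups overlap, but their middles are apart: the means were 678 ± 77.6 CPM (SD, n = 8) and 874 ± 85.3 CPM (SD, n = 8). The log2 difference of 0.34 ± 0.08 had an unadjusted edgeR p of 0.000939 and an adjusted p of 0.0851. It passed in DESeq2 (adjusted p = 0.00917; 3.05% of all genes passed there) and in voom (adjusted p = 0.0466; 0.75% passed), and gave an edgeR adjusted p of 0.349 with the replicate number as a block. Ctsb (3135 ± 217 and 3700 ± 504 CPM, SD, n = 8 each) had 0.22 ± 0.07 and Ctsd (1495 ± 97.3 and 1829 ± 332 CPM, SD, n = 8 each) 0.23 ± 0.10, with edgeR adjusted p of 0.213 and 0.378. These 3 genes had an unadjusted p below 0.05, as did 11% of all genes tested there. The median of the 9 genes was 0.19, against -0.00 over all genes.

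In Kupffer cells, 2 genes stood apart in opposite directions at the unadjusted level, where 3.27% of all genes did. Ctsl held 1153 ± 311 CPM (SD, n = 6) fasted and 840 ± 193 CPM (SD, n = 7) refed, a log2 difference of -0.44 ± 0.19 (edgeR adjusted p = 1, unadjusted p of 0.0374). Ctsc held 4071 ± 454 and 5305 ± 1495 CPM, a difference of 0.33 ± 0.15 (edgeR adjusted p = 1, unadjusted p of 0.048). The ranges overlap for both: 764 to 1699 against 504 to 1074 CPM for Ctsl, and 3533 to 4795 against 2956 to 7104 CPM for Ctsc. Kupffer fasted replicate 8 was far above its group in Ctsa, Ctsh, Ctss and Ctsz and low in summed pan-macrophage markers (3487 CPM, against 7940 to 11883 in the other 5 libraries). It was the highest of its group in summed Kupffer cell markers (25398 CPM, against 16426 to 24275). The part of this library in these values was not tested beyond leaving it out. Without it the differences were -0.30 for Ctsl and 0.27 for Ctsc, 0 of 9 had an unadjusted p below 0.05 (3.01% of all genes) and 6 of 9 genes were higher after refeeding, where 3 of 9 were with it.

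Single genes elsewhere had an unadjusted p below 0.05 in adipose and islet macrophages, where 5.16% and 2.42% of all genes did. Ctsl held 496 ± 125 CPM (SD, n = 8) in fasted and 594 ± 126 CPM (SD, n = 9) in refed adipose macrophages, a log2 difference of 0.29 ± 0.14 (edgeR adjusted p = 0.962, unadjusted p of 0.0482). Ctsc held 3528 ± 693 CPM (SD, n = 6) in fasted and 4096 ± 638 CPM (SD, n = 7) in refed islet macrophages, a difference of 0.18 ± 0.08 (edgeR adjusted p = 1, unadjusted p of 0.0345). Monocytes, microglia and colonic macrophages held 0 such genes, with 2.65%, 2.59% and 2.59% of all genes. Whether the refeeding difference itself varied among the 7 populations was tested as an interaction, and 0 of 10 genes passed (edgeR; 0.0268% of all genes did, the smallest adjusted p among the 10 being 0.456 for Ctsk and 0.842 for Ctsl).

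**Figure D3:**
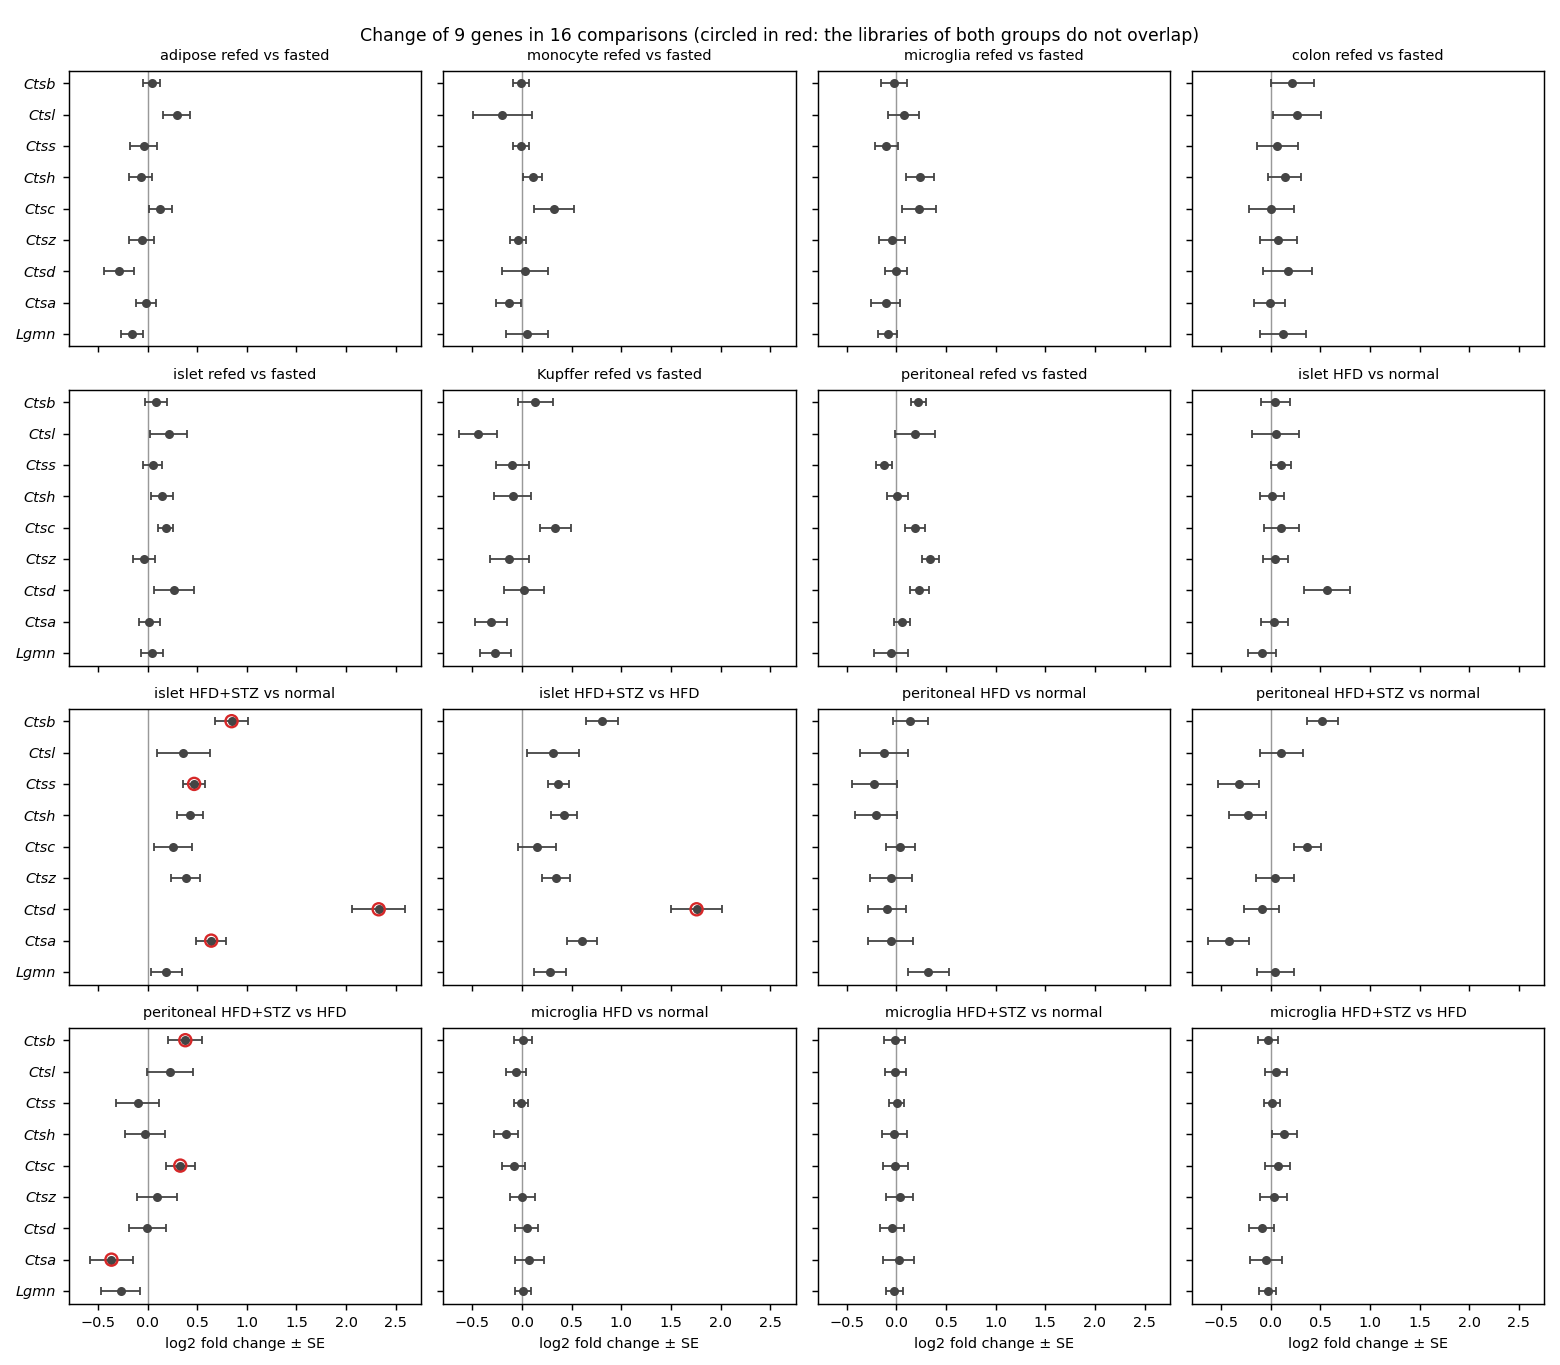
Log2 difference of each tested gene in the 7 refeeding and 9 diet comparisons, from the edgeR fits, with bars of 1 SE and red circles where the libraries of both groups do not overlap. Refeeding differences lie between -0.44 and 0.34 and the microglial diet differences between -0.16 and 0.14, while Ctsd in islet macrophages with STZ stands at 2.33 against normal diet and 1.76 against high-fat diet.

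Of the 60 other genes of the pathway, from 6 lists (other cathepsins, protease inhibitors, other lysosomal peptidases, sorting to lysosomes, partners and substrates, and regulators), 44 to 51 could be tested for refeeding in a population. In peritoneal macrophages 2 passed and both were higher after refeeding; in the other 6 populations 0 passed. Serpinb1a, an inhibitor of granule serine proteases, was at 346 ± 61.8 CPM (SD, n = 8) fasted and 714 ± 227 CPM (SD, n = 8) refed, a log2 rise of 0.98 ± 0.18 (edgeR adjusted p = 0.0235). Bhlhe40, a transcriptional repressor, was at 207 ± 60.2 and 375 ± 58.6 CPM (SD, n = 8 each), a rise of 0.94 ± 0.16 (edgeR adjusted p = 0.0186). With the replicate number as a block neither passed (edgeR adjusted p of 0.256 and 0.163).

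Diet and STZ were compared within islet macrophages, peritoneal macrophages and microglia. The 3 groups of a population share libraries between comparisons, so the contrasts against normal and high-fat diet are not independent of each other. In islet macrophages Ctsd, the aspartic protease, was the gene with the widest gap. Its libraries held 791, 804, 405 and 386 CPM on normal diet, 710, 1532, 981 and 488 CPM on high-fat diet, and 3070, 2965 and 2241 CPM with STZ. All 3 STZ libraries stood above all 8 others, while normal and high-fat diet overlapped. The mean with STZ, 2759 ± 451 CPM (SD, n = 3), was 5.02-fold that on normal diet by the fit (597 ± 232 CPM, SD, n = 4), a log2 difference of 2.33 ± 0.27 with an unadjusted edgeR p of 6.49e-06.

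After adjustment over all 12406 genes this Ctsd difference had an edgeR adjusted p of 0.0578, so it did not pass, nor did any of the 9 genes (0.0% of all genes passed). Other tools placed it on the other side: the adjusted p was 6.65e-17 in DESeq2, 0.0275 in voom, 0.0376 with DESeq2's size factors in edgeR and 0.00364 with no filter on low counts, with log2 differences of 2.04 to 2.37. Leaving out 1 library at a time gave 2.11 to 2.60, with edgeR adjusted p from 0.0557 to 0.437. Without the 2 libraries richest in B and plasma cell RNA (normal diet replicate 5 and high-fat diet replicate 5, 10967 and 12426 CPM of those markers) it was 2.16 with an edgeR adjusted p of 0.708.

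The test of whether the STZ difference varied among the 3 populations was passed by Ctsd. Its log2 difference between STZ and normal diet was 2.33 in islet macrophages, -0.09 ± 0.17 in peritoneal macrophages and -0.05 ± 0.12 in microglia. Without peritoneal normal diet replicate 3 the peritoneal difference was 0.09 ± 0.08. The interaction was tested in a joint fit with a single spread per gene over the 3 populations, whose libraries differ in starting cells. The fit within islets took its spread from islet libraries alone, so the p-values of both fits rest on unlike spreads. The interaction, with all libraries, had an edgeR adjusted p of 0.000164. Over 15 alternatives, which leave out each islet library in turn among others, that p ran from 1.11e-05 to 0.00115. Against high-fat diet the interaction had an adjusted p of 0.00251 (0.000286 to 0.0257 over the alternatives), and for high-fat against normal diet 0.629. Ctsd was 1 of 10 genes to pass for STZ against normal diet, where 0.754% of all genes did, and 1 of 10 against high-fat diet, where 0.708% did. In the high-fat comparison 0 of 10 passed, with 0.308% of all genes.

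**Figure D4:**
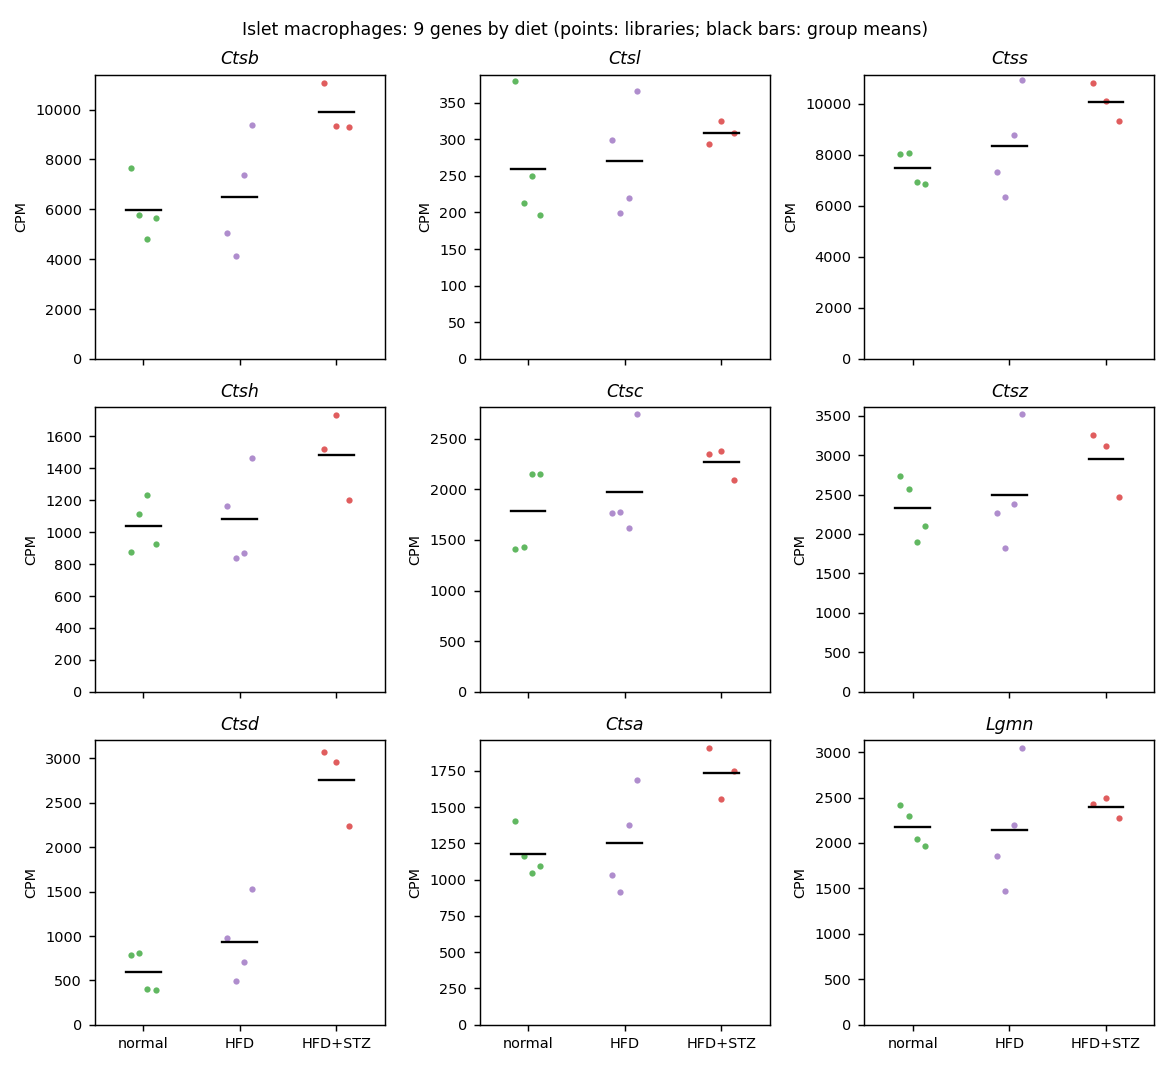
Levels of the 9 expressed genes in islet macrophages by diet group, each point a library (CPM, bars are group means). The 3 STZ libraries of Ctsd (2241 to 3070 CPM) lie above all normal-diet (386 to 804 CPM) and high-fat (488 to 1532 CPM) libraries.

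Other genes of the set were also higher in islet macrophages with STZ than on normal diet, by less. All 9 log2 differences were above 0, with a median of 0.43 against -0.15 over all genes. At an unadjusted p below 0.05 there were 6 of 9, against 5.66% of all genes, and in 4 of 9 the groups did not overlap, against 6.47%. Ctsb held 7675, 5775, 4808 and 5632 CPM on normal diet, 7372, 9362, 5045 and 4138 CPM on high-fat diet, and 11058, 9337 and 9285 CPM with STZ. The STZ libraries exceeded every normal-diet library, and 1 high-fat library reached their level. Their difference from normal diet was 0.85 ± 0.16 on the log2 scale (edgeR adjusted p = 0.382).

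Ctss held 8038, 8081, 6936 and 6857 CPM on normal diet and 10786, 10120 and 9306 CPM with STZ, a log2 difference of 0.47 ± 0.11 (edgeR adjusted p = 0.575). Ctsa had means of 1175 ± 157 CPM (SD, n = 4) and 1737 ± 178 CPM (SD, n = 3), a difference of 0.64 ± 0.15 (edgeR adjusted p = 0.59). Neither overlapped between these groups. The exopeptidase genes Ctsh, Ctsz and Ctsc had differences of 0.43, 0.38 and 0.26, Ctsl 0.36 and Lgmn 0.19, and in all 5 the ranges overlap. DESeq2 passed 6 of the 9, where it passed 4.78% of all genes: Ctsd, Ctsb (adjusted p = 3.06e-06), Ctss (0.000168), Ctsa (0.000911), Ctsh (0.014) and Ctsz (0.048), while voom passed Ctsd alone (0.0403% of all genes).

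Against high-fat diet without STZ, all 9 genes again had higher levels in the STZ islet libraries, with a median log2 difference of 0.37 against -0.29 over all genes. Ctsd stood 1.76 ± 0.25 higher (edgeR adjusted p = 0.574) and was the 1 gene of 9 whose groups did not overlap, against 7.28% of all genes. None passed in edgeR (0.0% of all genes) or voom, 6 of 9 had an unadjusted p below 0.05 (4.99% of all genes), and DESeq2 passed 5: Ctsd, Ctsb, Ctsa, Ctss and Ctsh (3.01% of all genes). The step from normal to high-fat diet was small beside these: 8 of 9 genes were higher with a median of 0.04, against 0.13 over all genes, and 0 of 9 passed in edgeR (0.0% of all genes), DESeq2 or voom. Ctsd was the 1 gene with an unadjusted p below 0.05 there (log2 difference 0.57 ± 0.23, unadjusted p of 0.0343, edgeR adjusted p = 1; 2.42% of all genes).

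The share of all counts held by the 10 genes in islet macrophages was 2.04% ± 0.149 (SD, n = 4) on normal diet, 2.16% ± 0.399 (SD, n = 4) on high-fat diet and 3.01% ± 0.089 (SD, n = 3) with STZ. Within that share, Ctsd made up 2.57%, 3.61% and 8.11% of the 10 genes' counts. Of the marker lists, the summed islet macrophage markers (Itgax, Il1b, Mgl2, Apoe and Cxcl16) also stood higher with STZ, at 36405 to 40499 CPM against 22763 to 35020 on normal diet. Summed islet endocrine markers held 1768 to 3543 with STZ, 1876 to 6094 on normal diet and 3444 to 6183 on high-fat diet, and summed monocyte markers held 122 to 213, 104.5 to 267 and 56.98 to 269. Dendritic cell markers held 225 to 283 with STZ against 264 to 979 on normal diet. Their part in the Ctsd and Ctsb differences was not tested.

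Around these proteases, 52 of the 60 other pathway genes could be tested in islet macrophages and 0 passed in edgeR in any of the 3 contrasts. Between STZ and normal diet the 5 tested other lysosomal peptidases were all higher, with a median log2 difference of 0.49. Other cathepsins were higher in 4 of 5, with a median of 0.55, while the sorting genes were higher in 5 of 12, with a median of -0.17. Protease inhibitors were higher in 4 of 7 (median 0.20), partners and substrates in 5 of 9 (0.17) and regulators in 5 of 14 (-0.17). Over all genes the median was -0.15.

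In peritoneal macrophages the gene with the widest STZ difference was Ctsb rather than Ctsd. Ctsb libraries held 2848, 3507, 5164, 2970 and 3196 CPM on normal diet, 3209, 3906, 3716 and 3561 CPM on high-fat diet, and 4004, 4730, 5577, 5257 and 5552 CPM with STZ. Apart from the third normal-diet library, every STZ library exceeded every library of the other groups. Ctsc held 482, 610, 720, 547 and 548 CPM on normal diet, 539, 632, 551 and 560 CPM on high-fat diet, and 741, 753, 859, 642 and 771 CPM with STZ. Here too the third normal-diet library reached into the STZ range, and no other did.

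Between STZ and normal diet 5 of the 9 genes were higher, with a median log2 difference of 0.04 against -0.01 over all genes and a range from -0.42 for Ctsa to 0.52 for Ctsb. The contrast gave 0.52 ± 0.16 on the log2 scale for Ctsb (edgeR adjusted p = 0.123) and 0.37 ± 0.14 for Ctsc (edgeR adjusted p = 0.176). None of the 9 genes passed in edgeR, where 1.29% of all genes did (0.665% higher), and these 2 had an unadjusted p below 0.05, as did 19.6% of all genes. Normal diet replicate 3 stood apart from its group. Its summed pan-macrophage markers were 1222 CPM against 5593 to 6155 in the other 4 libraries, and it was far above them in 8 of the 9 genes. Without it both genes passed: Ctsb rose by 0.64 (edgeR adjusted p = 0.00882) and Ctsc by 0.41 (0.0354), against 1.68% of all genes, and 7 of 9 genes were higher, with a median of 0.27. Without STZ replicate 3 the values were 0.64 and 0.42 (edgeR adjusted p = 0.00891 and 0.0311, with 1.8% of all genes passing). This adds no separate evidence, because normal diet and STZ replicate 3 are the sole libraries of their cohort. Leaving out either one leaves the other without weight in the contrast. With all libraries, both genes passed in voom (0.0064 and 0.0464, 2.01% of all genes) and Ctsb in DESeq2 (0.0204, 7.18%).

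**Figure D5:**
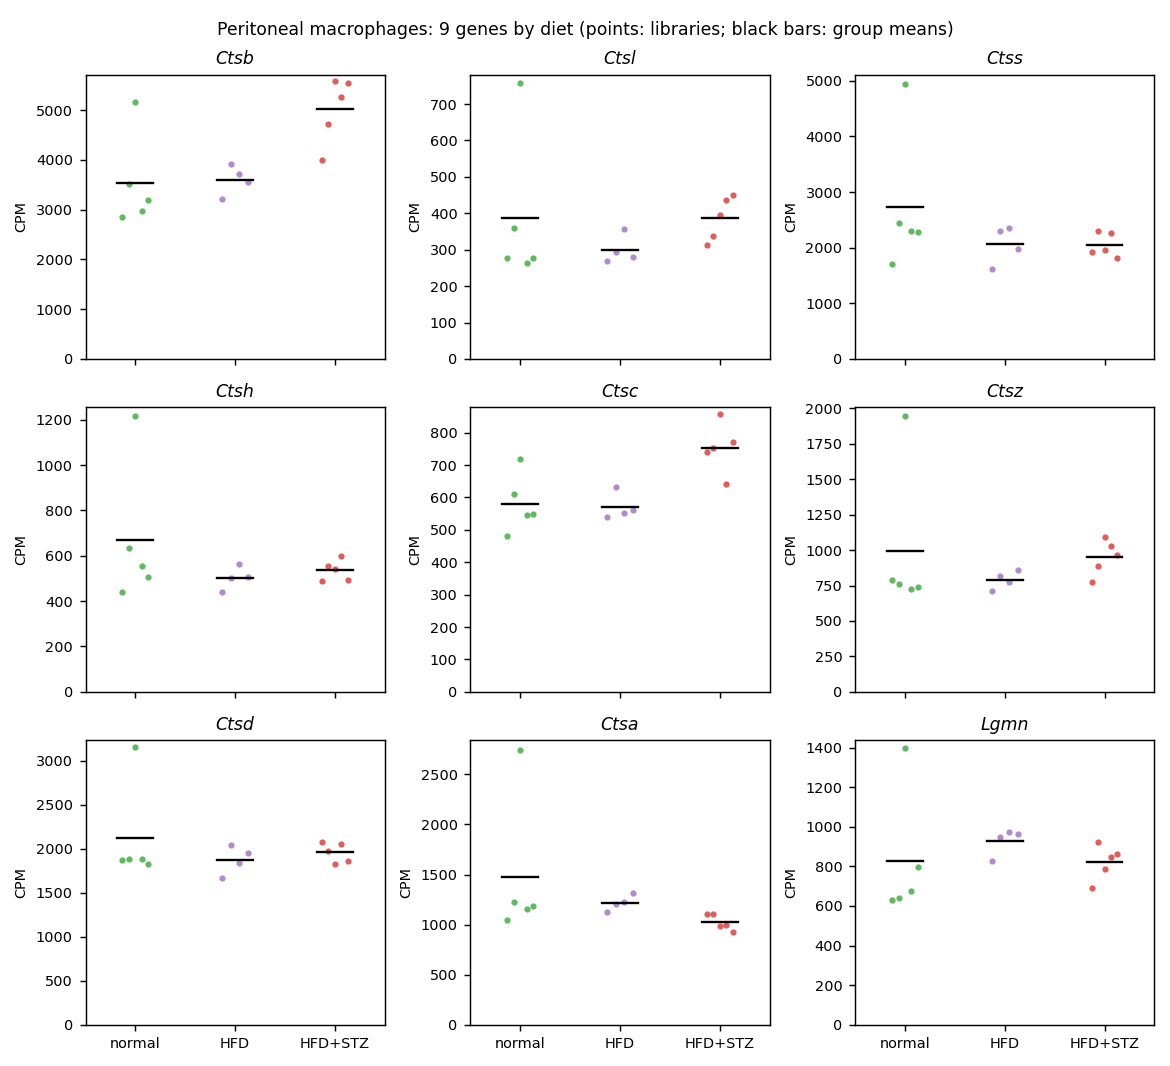
Levels of the 9 expressed genes in peritoneal macrophages by diet group, each point a library (CPM, bars are group means). Normal diet replicate 3 is the high point of that group in all genes, for example 5164 CPM in Ctsb and 3156 CPM in Ctsd, and the STZ libraries lie above all other libraries but that one in Ctsb and Ctsc.

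STZ and high-fat libraries separated in 3 of 9 genes without overlap, against 6.01% of all genes. Ctsb (3598 ± 295 CPM, SD, n = 4, and 5024 ± 664 CPM, SD, n = 5) and Ctsc (571 ± 41.9 and 753 ± 77.4 CPM) were higher with STZ, by 0.38 ± 0.17 and 0.33 ± 0.15 on the log2 scale. Ctsa (1219 ± 77.7 and 1024 ± 80.8 CPM) was lower, with -0.36 ± 0.22. Normal diet replicate 3 shares its cohort with an STZ library and no high-fat library, so it enters these estimates through the cohort term. Without it they were 0.44 for Ctsb, 0.35 for Ctsc and -0.24 for Ctsa (edgeR adjusted p of 0.0902, 0.119 and 0.329; 0.152% of all genes passed). None passed in edgeR (0.0% of all genes; adjusted p of 0.607, 0.599 and 0.789), DESeq2 or voom, and 2 of 9 had an unadjusted p below 0.05, as did 8.08% of all genes. High-fat against normal diet gave differences from -0.22 to 0.32, with 0 of 9 genes passing in edgeR (0.0% of all genes), DESeq2 or voom and 0 at an unadjusted p below 0.05 (3.54% of all genes). Without that library they ran from -0.09 to 0.44, with 0 of 9 passing (0.0152% of all genes).

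Summed monocyte markers (Ly6c2, Ccr2, Plac8 and Chil3) had a higher median with STZ than on either diet in the peritoneum. They held 90.6 to 327 CPM in the 5 STZ libraries, against 30.9 to 76.4 CPM on normal diet and 34.3 to 109.2 CPM on high-fat diet, with medians of 189, 40.9 and 73.5 CPM. The STZ libraries lie above all normal diet libraries, and their range overlaps that of high-fat diet. In the refeeding experiment, scaled separately, fasted monocytes held 1828 CPM of Ctsb and 1318 CPM of Ctsc, against 3135 and 577 CPM in fasted peritoneal macrophages, so monocytes were lower in Ctsb and higher in Ctsc.

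Markers of other macrophages also differed between some of these libraries. Summed adipose macrophage markers (Lyve1, Cd163, Retnla, Mrc1 and Clec10a) held 5362, 6002 and 4956 CPM in STZ replicates 3, 4 and 5, above the 1421 to 3017 CPM of all normal and high-fat libraries, but 1220 and 1708 CPM in STZ replicates 1 and 2. Fasted adipose macrophages of the refeeding experiment held 7459 CPM of Ctsb and 2940 CPM of Ctsc, more than peritoneal macrophages in both. STZ replicates 1 and 2 held 4004 and 4730 CPM of Ctsb and 741 and 753 CPM of Ctsc. These values were above every high-fat library, and above 4 of the 5 normal-diet libraries in Ctsb and all 5 in Ctsc. Summed peritoneal macrophage markers (Gata6, Prg4, Selp, Naip1 and Cxcl13) held 4790 to 10232 CPM with STZ, below the 10926 to 12232 CPM on high-fat diet without overlap and overlapping the 7649 to 13246 CPM on normal diet. Summed islet macrophage markers held 8975 to 18348 CPM with STZ, against 6914 to 8359 CPM on high-fat diet and 6013 to 15095 CPM on normal diet. The part of these lists in the Ctsb and Ctsc differences was not tested.

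Of the other pathway genes, 2 of 52 passed between STZ and normal diet in peritoneal macrophages. Serpinb1a, the inhibitor that rose with refeeding, fell by 1.40 ± 0.28 on the log2 scale (896 ± 436 to 321 ± 89.6 CPM, SD, n = 5 each, edgeR adjusted p = 0.0331). Rragd, a GTPase that signals amino acid supply at the lysosome, passed (edgeR adjusted p = 0.0111) at levels near 0, with means of 0.0277 and 1.58 CPM, so no fold is given. Serpinb1a lost its call without normal diet or STZ replicates 4 or 5 (edgeR adjusted p of 0.103 to 0.125). By list, other cathepsins were higher in 1 of 5 (median log2 difference -0.54) and other lysosomal peptidases in 2 of 5 (-0.30). Protease inhibitors were higher in 1 of 7 (-0.56), sorting genes in 9 of 12 (0.20), partners and substrates in 6 of 9 (0.09) and regulators in 8 of 14 (0.19).

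Microglia, the population with the highest Ctsd and Lgmn, held both at group means that differed by less than the spread between libraries. Ctsd was at 4831 ± 591, 5084 ± 1030 and 4723 ± 449 CPM (SD, n = 4 each) on normal diet, high-fat diet and with STZ, and Lgmn at 5153 ± 221, 5297 ± 705 and 5234 ± 361 CPM. Over the 3 contrasts, the 27 log2 differences lay between -0.16 and 0.14, with SEs of at most 0.16. None passed in edgeR (0.0% of all genes in each contrast), DESeq2 or voom, 0 had an unadjusted p below 0.05, and 0 pairs of groups separated without overlap, against 1.2% to 2.84% of all genes. Of the STZ libraries of microglia, 1 was the sole library of its cohort and so added nothing to these contrasts.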

How the data were processed

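Both deposited tables hold raw read counts per gene and library. The submitters' processing notes name Trimmomatic 0.36, STAR 2.5.1a, featureCounts and the mm10 build. Annotation release, strandedness and the handling of multi-mapping reads were not given in these sources. Of 50686 identifiers, 50376 matched a symbol of the GENCODE annotation of the same assembly, version dropped, which also gave positions and lengths. Smart-seq2 has no molecular identifiers, so tests rest on the spread between libraries, not on counting error.

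Libraries were grouped as labelled by population and treatment. For 4 libraries (2 islet, 2 Kupffer) titled and labelled as refed, the description mentions fasting alone; they stayed in the refed groups, and an alternative dropped them. Of all pairs of libraries within a group, 0 held identical counts. Each comparison was fitted within its population on all genes left by filterByExpr, with the cohort as a term, TMM scaling and the robust quasi-likelihood F test of edgeR 4.0.16 (R 4.3.3). Benjamini-Hochberg adjustment ran over all genes tested, with calls at an adjusted p below 0.05. An SE is the log2 difference divided by the square root of F. Levels are CPM on TMM-scaled library sizes, scaled within each experiment, and marker sums are CPM on unscaled totals. Joint fits, with a single spread per gene over all their libraries, tested differences between populations and whether an effect varied among them. Code was tested on simulated data. Alternatives were DESeq2 1.42.0, voom with quality weights (limma 3.58.1), DESeq2's size factors in edgeR, no cohort term, the replicate number as a block, no filter on low counts and, in the diet experiment, leaving out each library. Leaving out the acinar-rich colonic libraries, the islet libraries rich in B and plasma cell RNA, Kupffer fasted replicate 8, peritoneal normal diet replicate 3 between STZ and high-fat diet or, for the interactions, single libraries was chosen after seeing the data.

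Fasted and refed libraries of 1 number have a cohort in common but no stated animal. Their deviations from the group means correlated across genes by a mean of -0.005 to 0.065 per population, so they were not taken as pairs. For diet in islets and peritoneum the number is the labelled cohort, a block in the fit; the mean correlation was 0.0507 over 10 islet pairs and 0.134 over 13 peritoneal pairs. In islets cohort 1 has no STZ library and so enters the STZ contrasts only through its difference between high-fat and normal diet.

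The genes and the pathway and marker lists were chosen with earlier results of these data known. All 10 genes are named, and of the pathway lists every gene that passed. For likeness, the 3 genes with the highest r over group means of log2(CPM + 1) are named, among genes with a mean of at least 10 CPM. A few genes that this rule or the monocyte marker list would name are not reported here, and the monocyte sums leave theirs out.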

Additional observations from a re-analysis of the deposited data

Results flagged for a closer look

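In each group of 4 to 10 libraries, the highest and lowest library of each of the 9 expressed genes were compared with the rest of the group, and 23 of 198 sets held a library far from the others, where chance gives about 1 in 20. Peritoneal normal diet replicate 3 accounted for 8 of them, all high: 2749 CPM of Ctsa, 5164 of Ctsb, 3156 of Ctsd, 1215 of Ctsh, 756 of Ctsl, 4946 of Ctss, 1944 of Ctsz and 1398 of Lgmn. Kupffer fasted replicate 8 was high in 4, with 3165 CPM of Ctsa, 1982 of Ctsh, 6758 of Ctss and 1797 of Ctsz. Both libraries were also the lowest of their group in summed pan-macrophage markers. Kupffer fasted replicate 8 was, however, the highest of its group in summed Kupffer cell markers. Links to these lists were not tested.

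The other 11 were spread over 10 libraries. Monocyte refed replicate 5 was high in Ctsb (2337 CPM) and low in Ctsh (483 CPM), monocyte refed replicate 4 was high in Ctsl (131 CPM) and monocyte fasted replicate 8 low in Ctsz (541 CPM). Among islet libraries, high-fat diet replicate 3 was high in Ctsc (2741 CPM) and refed replicate 9 in Ctsh (1999.6 CPM). Among microglial libraries, STZ replicate 3_13 was high in Ctsa (1585 CPM), normal diet replicate 1_5 low in Ctsh (514 CPM) and refed replicate 6 low in Ctss (3963 CPM). Peritoneal fasted replicate 4 was high in Ctsl (603.5 CPM) and Kupffer refed replicate 1 low in Lgmn (1759 CPM).

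The effect of STZ on Ctsd differed among islet macrophages, peritoneal macrophages and microglia by the interaction test in edgeR. The adjusted p was 0.000164 against normal diet and 0.00251 against high-fat diet, in a joint fit with a single spread per gene over these populations. Ctsd was higher in 3 of 3 islet STZ libraries than in all other islet libraries of that experiment.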

How the results depend on the processing

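Alternatives were gathered for 59 named differences. Within populations these had an edgeR p below 0.05, unadjusted or adjusted, and between populations they were steps between neighbours that passed. Across their 564 alternative values, 0 changed direction. Smaller differences were not counted, and some changed. Without Kupffer fasted replicate 8, 6 of 9 genes were higher after refeeding, where 3 of 9 were with it. Between STZ and normal diet in the peritoneum, 7 of 9 were higher without normal diet replicate 3 and 5 with it. Of the counts of genes called, edgeR's 0 became 1 in DESeq2 and 1 in voom for peritoneal refeeding (Ctsz). For STZ against normal diet in islets, 0 became 1 with DESeq2's size factors in edgeR, 6 in DESeq2, 1 in voom and 1 with no filter, and for STZ against high-fat diet 5 in DESeq2. For STZ against normal diet in the peritoneum 0 became 1 in DESeq2, 2 in voom and 0 to 2 when each library was left out. The count for diet by population was 1 to 2 in both STZ contrasts when 1 library was left out; without islet high-fat diet replicate 3 it included Ctsb (adjusted p = 0.0322 and 0.016). The cause was not tested. Among values of single genes, 234 kept their direction and side of the threshold under the other settings, 19 gained a call and 6 lost one; leaving out a library, 275 did, 4 gained and 26 lost one.

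With the replicate block in place of the cohort, 0 genes of the set were called in any refeeding comparison and 139 differences between fasted populations passed; without the replicate block, 0 were called in the diet islet and peritoneal comparisons. Over all genes, the block took peritoneal refeeding calls from 49 to 0, and DESeq2 gave 342. DESeq2 made 950 calls against 171 for STZ against normal diet in the peritoneum, and alternatives ran from 30 to 950. In the 14 comparisons where edgeR called 0 of all genes, the most under any alternative was 593, in DESeq2 for STZ against normal diet in islets.

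With 3 to 4 islet libraries a diet group, from 400 cells each, SEs reached 0.27 on the log2 scale. Differences many times their SE went uncalled there: Ctsd at 2.33 between STZ and normal diet had an edgeR adjusted p of 0.0578. The absence of a call in islets therefore does not exclude sizeable differences. Ctsk was too low to test within a population. Reads shared with overlapping genes (Pltp and Neurl2 for Ctsa, Fdft1 for Ctsb, Gm49369 for Ctsd, Nelfcd for Ctsz) could not be assigned. Gm47123 and Gm49230 overlap Ctsl in the annotation used here but are not among the identifiers of the refeeding counts.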
